A study of Mus musculus with 12 samples.

Results

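The 40 genes described here encode parts of the actin cytoskeleton or are known targets of the transcription factor SRF or of the coactivator YAP. They were chosen by symbol with earlier results of these data known, and all 40 were found among the 31017 genes of the deposited count tables. By role they are 3 actin isoforms, 3 filament crosslinkers, 5 genes of the calponin and transgelin family, 5 tropomyosin and caldesmon genes, 5 genes of non-muscle myosin II, 9 adhesion and LIM protein genes, 3 genes of filament turnover, Srf itself and 6 YAP targets. A filter on low counts kept 37 of them among 13763 genes tested, and Cnn1, Myl9 and Fhl1 were below it.

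Actin filaments give a cell its shape and its pull on the surroundings. Free actin monomers hold back the SRF cofactor MRTF, so a cell that builds more filaments releases MRTF to the nucleus, where SRF switches on actin and its partner genes. YAP enters the nucleus of spread or stretched cells and switches on other genes with TEAD factors, and several genes answer to both routes. In carcinoma cells these programmes are known to change with the stiffness and the dimension of the matrix around the cell.

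The cells were 4T1, a mouse mammary carcinoma line used as a model of metastatic breast cancer. Knockout clone 1 and knockout clone 2 were each grown from cells nucleofected with Cas9 and sgRNA against Etv4, an ETS transcription factor of the PEA3 group. Control cells were pooled clones given control sgRNA. Each was grown in 3D collagen I droplets, with 1.2 or 2.4 mg/ml collagen, or in 2D on plastic. This made 6 groups, which are clone 1, clone 2 and control in 3D and clone 1, clone 2 and control in 2D, with 2 libraries of polyadenylated RNA in each. All cells had been nucleofected, no cells were left untreated, and the labels do not say which gel strength a library had. Each knockout is 1 clone set against a pool of clones, so a difference from control cannot be told apart from a difference between clones. Gels were digested with collagenase I at 300 U/ml for 10 and then 5 min, while 2D cells were lysed directly.

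The 3D libraries held 26.5 to 33.2 M counts and the 2D libraries 12.3 to 18.7 M. Levels are given as counts per M (CPM) of the scaled library, and a difference as a log2 change with its standard error (SE). A gene was called where the Benjamini-Hochberg adjusted p of edgeR's two-sided quasi-likelihood test was under 0.05. Etv4 was lower than control in clone 1 in both formats and in clone 2 in 2D, but was not called in clone 2 in 3D. In 3D its libraries were at 69.9 and 69.1 CPM in clone 1, at 86.6 and 91.5 in clone 2 and at 94.7 and 99.4 in control. In 2D they were at 49.8 and 49.2 CPM in clone 1, at 49.3 and 46.0 in clone 2 and at 78.1 and 76.0 in control. The 7 epithelial markers, keratins and Epcam among them, summed to 3021 to 4976 CPM over all libraries. Of the defining markers of other lineages, Des, Col3a1, Pdgfrb, Lum and Itgam had 0 counts in all 12 libraries, and Myh11, Col1a1, Ptprc and Pecam1 stayed under 1 CPM. The smooth muscle marker Smtn (64.9 to 280 CPM) and also Pdgfra (3.57 to 23.2 CPM), Cd68 (1.61 to 10.3 CPM) and Egfl7 (3.11 to 14.5 CPM) were detected, and their part in the results was not tested.

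Whole chromosomes also moved in the clones, which touches the members that lie on them. Chromosome 1, which carries Tagln2, Csrp1 and Fhl2, had a median over its genes of -0.53 in 3D and -0.29 in 2D for clone 2 over control on the log2 scale. For clone 1 over control, the medians of chromosome 11, with Actg1, Myh10 and Pfn1, were -0.43 in 3D and -0.38 in 2D. Those of chromosome 17, with Srf, Myl12a and Myl12b, were 0.26 in 3D and 0.23 in 2D. Values with each chromosome centred on its own median are therefore given for many members whose calls or signs they change, but not for all.

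The promoters show how far the members share the elements through which SRF and YAP act. Of the 40 members, 37 matched the RefSeq promoter table (GRCm38.p6), and Actb, Tagln and Arhgef17 did not. A CArG box, the SRF motif of CC, then 6 bases that are A or T, then GG, stood within the 250 bases before a start site in 8 of the 37, or 21.6%, against 1.62% of the 27025 symbols of that table. The members were picked as SRF and YAP targets, so this share describes the choice. These are the stretches of 40 bases around the boxes of the SRF-linked members whose levels are followed below, read 5′ to 3′ on the strand of the gene, with the CArG box in capitals.
Srf, chr17:46556220-46556259, minus strand: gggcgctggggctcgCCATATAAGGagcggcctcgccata
Srf, chr17:46556200-46556239, minus strand: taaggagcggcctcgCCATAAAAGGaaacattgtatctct
Actg1, chr11:120348561-120348600, minus strand: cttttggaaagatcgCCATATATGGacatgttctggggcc
Cnn2, chr10:79988529-79988568, plus strand: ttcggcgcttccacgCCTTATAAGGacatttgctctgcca
Vcl, chr14:20929156-20929195, plus strand: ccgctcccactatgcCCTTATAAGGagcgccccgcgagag
Lima1, chr15:99820172-99820211, minus strand: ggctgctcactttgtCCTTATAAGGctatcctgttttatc
Fhl2, chr1:43163968-43164007, minus strand: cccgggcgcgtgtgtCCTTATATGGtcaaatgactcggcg
Fhl2, chr1:43196833-43196872, minus strand: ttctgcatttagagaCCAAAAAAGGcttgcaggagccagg

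Srf carried 2 boxes close together, and Fhl2 carried 1 before each of 2 start sites. Cnn2, Vcl and Lima1 shared the same 10 letters. Myl9 and Fhl1 also held a box but had hardly any counts. The TEAD motif CATTCC, searched on both strands, stood in 13 of the 37 members, or 35.1%, against 14.4% of all symbols. The YAP targets Ankrd1 and Ajuba each held it at 2 places, shown here in capitals in windows of 36 bases.
Ankrd1, chr19:36120034-36120069, minus strand: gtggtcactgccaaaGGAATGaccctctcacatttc
Ankrd1, chr19:36119947-36119982, minus strand: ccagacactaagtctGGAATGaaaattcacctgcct
Ajuba, chr14:54577827-54577862, minus strand: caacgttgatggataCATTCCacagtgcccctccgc
Ajuba, chr14:54577805-54577840, minus strand: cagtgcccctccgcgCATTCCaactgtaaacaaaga
Amotl2, chr9:102717724-102717759, plus strand: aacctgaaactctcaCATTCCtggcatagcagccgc

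The letters AGGAAG, a core bound by PEA3 factors, searched on both strands, stood in 11 of the 37 members, or 29.7%, against 32.3% of all symbols. That share is close to the share of all promoters. None of these counts of letters shows that a factor was bound.

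The members ranged over many orders of level. Per kb of exon length, Actb, the main cytoplasmic actin, was the highest member in all 6 groups, at 3408, 2206 and 2663 CPM per kb in clone 1, clone 2 and control in 3D and at 3584, 3384 and 2930 in 2D. In the 2D control it was followed by the tropomyosin gene Tpm4 at 468 CPM per kb, the second cytoplasmic actin Actg1 at 377, the monomer binder Pfn1 at 356, the severing gene Cfl1 at 271 and the crosslinker Flna at 241. The members of smooth muscle were near the bottom, as was Fhl1 of the adhesion and LIM genes. Over the 12 libraries together, Acta2 (smooth muscle actin) had 90 counts, Tagln 88, Cnn1 60, Myl9 12 and Fhl1 9, out of up to 33.2 M counts per library. Of 5 smooth muscle markers, Myh11, Lmod1 and Synpo2 were under 1 CPM and Des was at 0, while Smtn was at 64.9 to 280 CPM. The 5 members just named were close to the detection limit in these cells, and 34 members had a mean of at least 10 CPM. All 40 members together took 2.09 and 1.98% of the counts in the clone 1 libraries, 1.86 and 1.83% in clone 2 and 1.96 and 1.98% in control in 3D. In 2D they took 2.47 and 2.44% in clone 1, 2.39 and 2.42% in clone 2 and 2.16 and 2.20% in control, so every knockout library was above both control libraries on plastic.

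**Figure D1:**
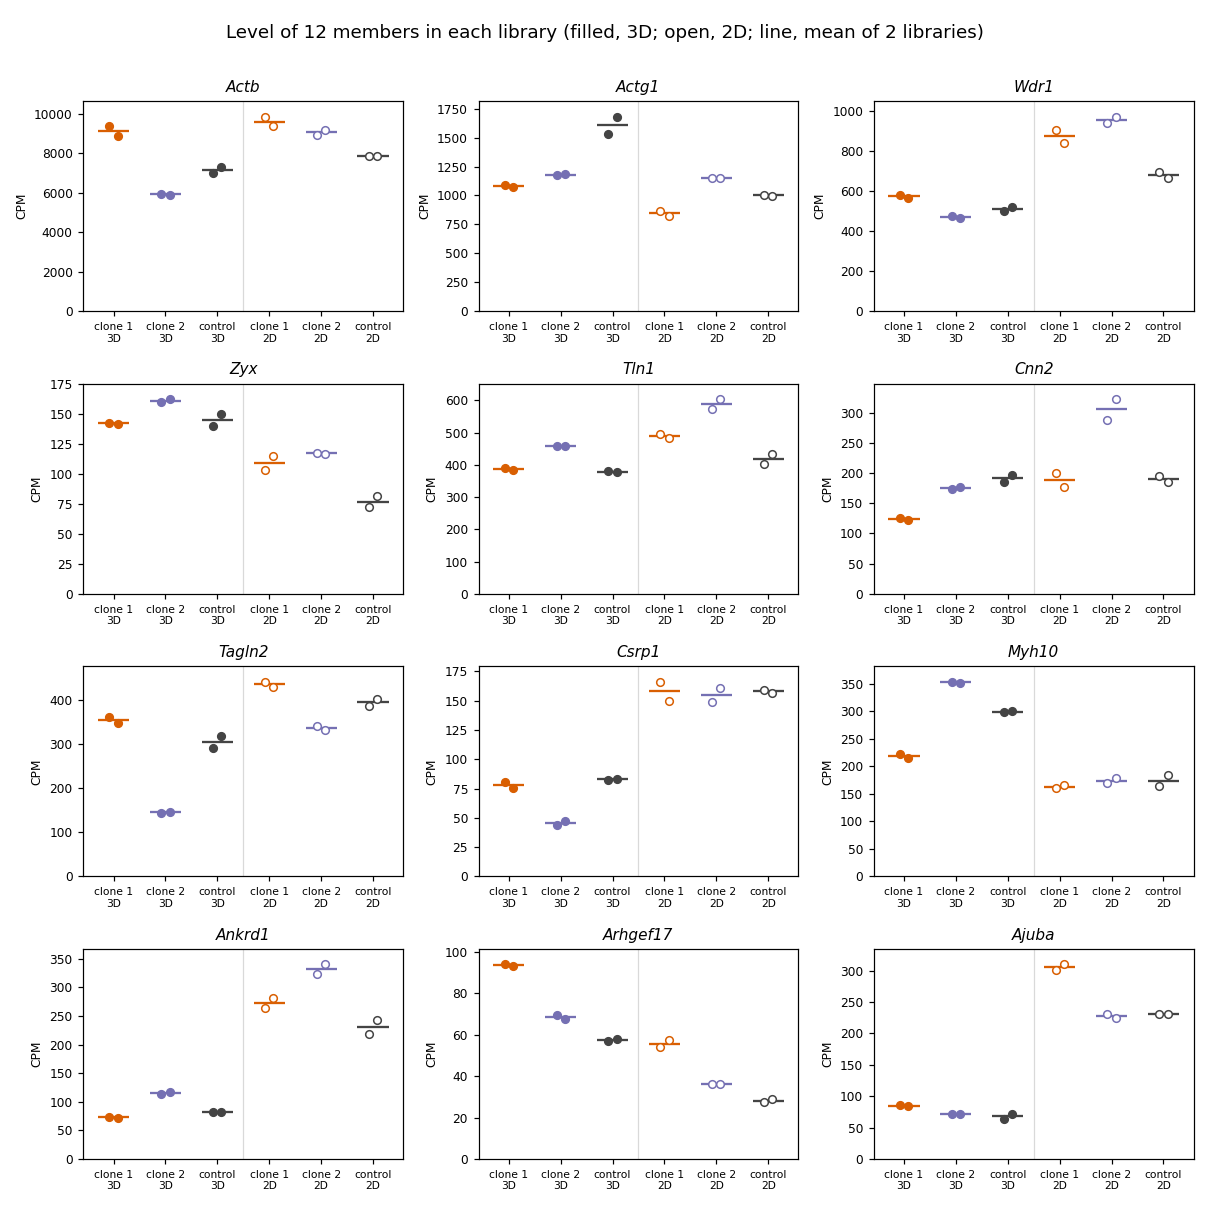
Level in CPM (y axis, from 0) of 12 members in each of the 12 libraries, by group (x axis), with filled points for 3D, open points for 2D and a line at the mean of 2 libraries. Zyx, Wdr1 and Ankrd1 were above control in every 2D knockout library, while Actg1 was below control in every 3D knockout library.

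On plastic, genes of nearly every role in the actin system were higher in the knockout clones than in control. Against control in 2D, the mean of both clones was higher for 21 of the 37 members tested and lower for 4, which is 67.6% of them, while 35.5% of all genes tested were called, 17.9% higher and 17.6% lower. The median log2 change was 0.20 over the members and 0.00 over all genes. The members were not matched to all genes by level, and 34 of them had a mean of at least 10 CPM. Genes with more counts can be called at smaller changes, and the part of this in the shares given here and below was not tested. In bulk RNA, fewer cells of one kind and less RNA per cell cannot be told apart, and since no label says that the 2 libraries of a group came from separate cultures, the p-values may rest on technical spread alone. All 3 crosslinkers were higher, as were 5 of 8 adhesion and LIM genes and 4 of 6 YAP targets. The largest rises were in Arhgef17, Zyx, Wdr1, Actn4, Ankrd1 and Tln1. Of the 25 calls, 16 held under all 19 alternatives tried, and all 16 were rises.

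Zyx encodes zyxin, which strengthens stress fibres where they are strained. It was at 103 and 115 CPM in clone 1 and at 118 and 117 CPM in clone 2, against 72.1 and 81.3 CPM in control. All 4 knockout libraries lay above both controls, and the mean log2 change was 0.56 ± 0.06 (adjusted p = 4.7e-08). Tln1, which encodes talin and ties integrins to actin, was at 497 and 483.5 CPM in clone 1 and 572 and 603 in clone 2, against 402 and 434 in control. The groups did not overlap, and clone 2 was the highest (0.36 ± 0.04, adjusted p = 6.4e-07). Vcl (vinculin, which binds talin under load) was higher by 0.29 ± 0.05 (adjusted p = 1.9e-05) and Pdlim5 by 0.17 ± 0.05 (adjusted p = 0.00531), each with no overlap. Fhl2, a LIM coactivator, was higher by 0.20 ± 0.06 (adjusted p = 0.00744), and its libraries overlapped with control through clone 2.

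Wdr1 encodes Aip1, which helps cofilin take filaments apart. Its level was 904 and 841 CPM in clone 1 and 940 and 972 CPM in clone 2, against 693 and 664.5 CPM in control. Every knockout library was above both controls, at 0.43 ± 0.05 (adjusted p = 4.6e-08). Cofilin itself, from Cfl1, was higher by 0.20 ± 0.05 (adjusted p = 0.0019), or 0.11 with chromosomes centred and not called (adjusted p = 0.133). Profilin, from Pfn1, went the other way, with 801 and 822 CPM in clone 1 and 736 and 763 CPM in clone 2, against 843 and 870.5 CPM in control. That difference was -0.14 ± 0.04 (adjusted p = 0.0188), but Pfn1 lies on chromosome 11, and with chromosomes centred its sign turned to 0.14 (adjusted p = 0.0402).

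Among the crosslinkers, Actn4 (alpha-actinin 4) was at 117 and 87.5 CPM in clone 1 and 138 and 157 CPM in clone 2, against 89.0 and 94.4 CPM in control. The 2 clone 1 libraries stood on either side of the controls, so the mean change of 0.42 ± 0.08 (adjusted p = 7.7e-05) came with overlap. Flna (filamin A) was higher by 0.27 ± 0.04 (adjusted p = 1.6e-05) and Actn1 by 0.20 ± 0.05 (adjusted p = 0.00137), both without overlap. Actn1 lost its call with chromosomes centred, at 0.03 (adjusted p = 0.744).

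The 2 cytoplasmic actins parted. Actb was at 9851 and 9352 CPM in clone 1 and at 8934 and 9195 CPM in clone 2, against 7855 and 7841 CPM in control, a change of 0.25 ± 0.05 (adjusted p = 1.2e-04) with no overlap. Actg1 was at 869 and 825 CPM in clone 1 and at 1154 and 1148 CPM in clone 2, against 1007 and 998 CPM in control. The clones lay on opposite sides of control, and the mean change of Actg1 was -0.02 ± 0.04 (adjusted p = 0.771), or 0.25 with chromosomes centred (adjusted p = 2.9e-04). Near-identical copies of both actins exist in the genome, and how the authors' counting shared reads among them is not stated, so their levels are uncertain. Acta2 had 0 counts in clone 1 and 3 in clone 2, against 11 in control. Over a floor of 3 counts for the group this is at least 3.37-fold lower in clone 1, and the ratio of clone 2 to control was 0.244 with a 95% counting interval of 0.0438 to 0.925. The mean difference was called (adjusted p = 0.0151), but without control replicate 2 it was not (adjusted p = 0.308). Tagln, the transgelin of smooth muscle, had 9 and 6 counts in clone 1 and clone 2 against 5 in control (adjusted p = 0.791), and a gene on the opposite strand covers 67.9% of its exon length.

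Of the genes tested, 2 of 4 of non-muscle myosin, 2 of 5 of tropomyosin and caldesmon and 1 of 4 of the calponin and transgelin family were higher, and the others were not called. Myh9, the main non-muscle myosin heavy chain, was higher by 0.26 ± 0.04 (adjusted p = 3.7e-05), and the light chain gene Myl12a by 0.27 ± 0.05 (adjusted p = 5.0e-05). Tpm4 was higher by 0.22 ± 0.04 (adjusted p = 3.1e-04) and Cald1 (caldesmon) by 0.25 ± 0.04 (adjusted p = 5.8e-05). Cnn2, a calponin, was higher by 0.33 ± 0.06 (adjusted p = 3.4e-05), with 200 and 176 CPM in clone 1 and 288 and 322 CPM in clone 2, against 196 and 185 CPM in control. That rise was in clone 2, since the clone 1 libraries overlapped with control. Myl12a and Myl12b are near-identical neighbours, and their split is uncertain. Tagln2, Cnn3, Tpm1, Tpm2, Tpm3, Myh10, Myl12b, Lima1, Csrp1 and Lats2 were not called in this comparison. With chromosomes centred, some of these were called higher. They were Csrp1 (0.22, adjusted p = 0.00355), Tagln2 (0.19, adjusted p = 0.00482) and Tpm1 (0.19, adjusted p = 0.00206). Myh10 (0.22, adjusted p = 0.00357) and Tpm3 (0.12, adjusted p = 0.0406) were called higher as well. The centred fit called 25 members higher and 2 lower. Of all 13763 genes tested, it called 2175 higher and 1727 lower.

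Srf was at 101.5 and 111 CPM in clone 1 and at 96.7 and 94.8 CPM in clone 2, against 88.7 and 80.1 CPM in control. It was higher without overlap, by 0.26 ± 0.06 (adjusted p = 0.00131). Ankrd1, a YAP and SRF target that encodes a titin-binding ankyrin protein, was at 264 and 281 CPM in clone 1 and at 323 and 340 CPM in clone 2, against 218 and 243 CPM in control. All knockout libraries were above control, by 0.38 ± 0.05 on the log2 scale (adjusted p = 1.3e-06). Arhgef17, which encodes a guanine nucleotide exchange factor, had the largest change of the members above 1 CPM. It was at 54.2 and 57.4 CPM in clone 1 and at 36.1 and 36.3 CPM in clone 2, against 27.3 and 29.2 CPM in control (0.67 ± 0.07, adjusted p = 3.7e-08). The receptor kinase gene Axl was higher by 0.28 ± 0.04 (adjusted p = 1.3e-05) and the LIM gene Ajuba by 0.19 ± 0.05 (adjusted p = 0.00288), which centring took to 0.11 (adjusted p = 0.108). Amotl2, a YAP target that itself restrains YAP, was lower at -0.22 ± 0.05 (adjusted p = 0.0022), with 192 and 201 CPM in clone 1 and 182 and 162 CPM in clone 2, against 203 and 226.5 CPM in control. Pdlim7 was also lower, at 59.9 and 72.0 CPM in clone 1 and 69.9 and 63.4 CPM in clone 2, against 77.6 and 73.25 CPM in control (-0.19 ± 0.07, adjusted p = 0.0274). Neither of these overlapped with control, but with chromosomes centred Amotl2 was at -0.08 and was not called (adjusted p = 0.316).

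In collagen fewer members were higher in the knockout clones, and the genes that were lower outnumbered them. Against control in 3D, the mean of both clones was higher for 6 of 37 members and lower for 11, which is 45.9%, while 28.9% of all genes tested were called, 11.5% higher and 17.4% lower. The median log2 change was 0.01 over the members and -0.01 over all genes. Of the 4 genes tested in the calponin and transgelin family, 3 were lower, and 4 of 6 YAP targets were higher. By clone and uncentred, that family had 1 higher and 2 lower in clone 1 and 1 lower in clone 2. Cnn2 and Cnn3 were lower in clone 1 and Tagln2 in clone 2, so none was called lower in both. With chromosomes centred, 2 members were higher and 5 lower, and Actn1, Axl, Ajuba, Ankrd1, Tagln2, Tpm1, Tpm4 and Pdlim5 were no longer called. Of all 13763 genes tested, that centred fit called 1128 higher and 1245 lower. The share of members called was then near that of all genes. Arhgef17 higher and Actg1, Cnn2, Cnn3 and Csrp1 lower were called under all 19 alternatives tried.

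Actg1 was at 1092 and 1071 CPM in clone 1 and at 1175 and 1186 CPM in clone 2, against 1532 and 1681 CPM in control. All 4 knockout libraries were below both controls, by -0.51 ± 0.04 (adjusted p = 1.6e-09), or -0.28 with chromosomes centred (adjusted p = 6.9e-05). Actb was at 9367 and 8894 CPM in clone 1 and at 5961 and 5861 CPM in clone 2, against 6973 and 7297 CPM in control. The clones stood on either side of control, and the mean change of Actb was 0.04 ± 0.05 (adjusted p = 0.547). Acta2 had 27 and 25 counts in clone 1 and clone 2 and 24 in control (adjusted p = 0.932), and Tagln 20 and 27 counts against 21 (adjusted p = 0.936).

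Csrp1, a LIM protein gene known as an SRF target, was at 80.35 and 75.2 CPM in clone 1 and at 43.9 and 47.5 CPM in clone 2, against 82.6 and 83.0 CPM in control. Its libraries did not overlap, but most of the fall of -0.47 ± 0.05 (adjusted p = 2.1e-07) was in clone 2. Tagln2, the transgelin of non-muscle cells, was at 362 and 348 CPM in clone 1 and at 144.5 and 146 CPM in clone 2, against 291 and 318 CPM in control. Clone 1 was above control and clone 2 below it, so the mean of -0.42 ± 0.04 (adjusted p = 5.4e-08) lies between 2 clones of opposite sign. Both genes lie on chromosome 1, and centred they were at -0.16 for Csrp1 (adjusted p = 0.0497) and at -0.11 for Tagln2 (adjusted p = 0.147).

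Cnn2 was at 125 and 122 CPM in clone 1 and at 173 and 177 CPM in clone 2, against 186 and 196 CPM in control. Every knockout library was lower, by -0.38 ± 0.05 (adjusted p = 3.7e-06), with clone 1 the lowest. Cnn3 was at 189 and 180 CPM in clone 1 and at 232 and 234 CPM in clone 2, against 237 and 240.5 CPM in control (-0.20 ± 0.05, adjusted p = 0.0013). Again there was no overlap, and clone 2 was close to control. Lima1, which encodes the filament-bundling protein EPLIN, was at 40.2 and 39.2 CPM in clone 1 and at 36.5 and 38.9 CPM in clone 2, against 46.1 and 46.4 CPM in control (-0.26 ± 0.07, adjusted p = 0.00693). Its call was lost without control replicate 1 or control replicate 2 in 3D, with the highest adjusted p at 0.0813. The smaller falls of Pfn1 (-0.18), Fhl2 (-0.16), Tpm1 (-0.15), Tpm4 (-0.15) and Pdlim5 (-0.14) were each lost in at least 1 alternative. With chromosomes centred, Fhl2 was at 0.16 (adjusted p = 0.0674) and Pfn1 at 0.04 (adjusted p = 0.635).

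Arhgef17 was again higher, at 94.0 and 93.45 CPM in clone 1 and at 69.8 and 67.7 CPM in clone 2, against 57.0 and 58.0 CPM in control (0.48 ± 0.06, adjusted p = 2.0e-07). Its 4 knockout libraries all lay above control. Ajuba was at 86.1 and 83.9 CPM in clone 1 and at 71.7 and 71.75 CPM in clone 2, against 64.3 and 72.1 CPM in control (0.20 ± 0.05, adjusted p = 0.00452), so clone 2 overlapped with control, and the centred value was 0.09 (adjusted p = 0.307). Ankrd1 was at 73.9 and 72.3 CPM in clone 1 and at 113 and 117 CPM in clone 2, against 82.1 and 82.8 CPM in control. The clones moved apart, clone 2 above and clone 1 below control, with a mean of 0.15 ± 0.05 (adjusted p = 0.0276), or 0.09 centred (adjusted p = 0.312). Actn1 (0.15 ± 0.04, adjusted p = 0.0112), Tln1 (0.15 ± 0.04, adjusted p = 0.00984) and Axl (0.13 ± 0.04, adjusted p = 0.0228) were higher by small amounts that were lost without 3D control replicate 1 and without replicate 2. Srf was at 95.3 and 90.7 CPM in clone 1 and at 70.0 and 75.2 CPM in clone 2, against 77.3 and 81.9 CPM in control, with a mean of 0.04 ± 0.06 (adjusted p = 0.606). Without control replicate 1 in 3D, fewer members were called in this comparison, at 1 higher and 6 lower. Without control replicate 2 they were 2 and 5, and without clone 1 replicate 2 there were 7 lower.

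**Figure D2:**
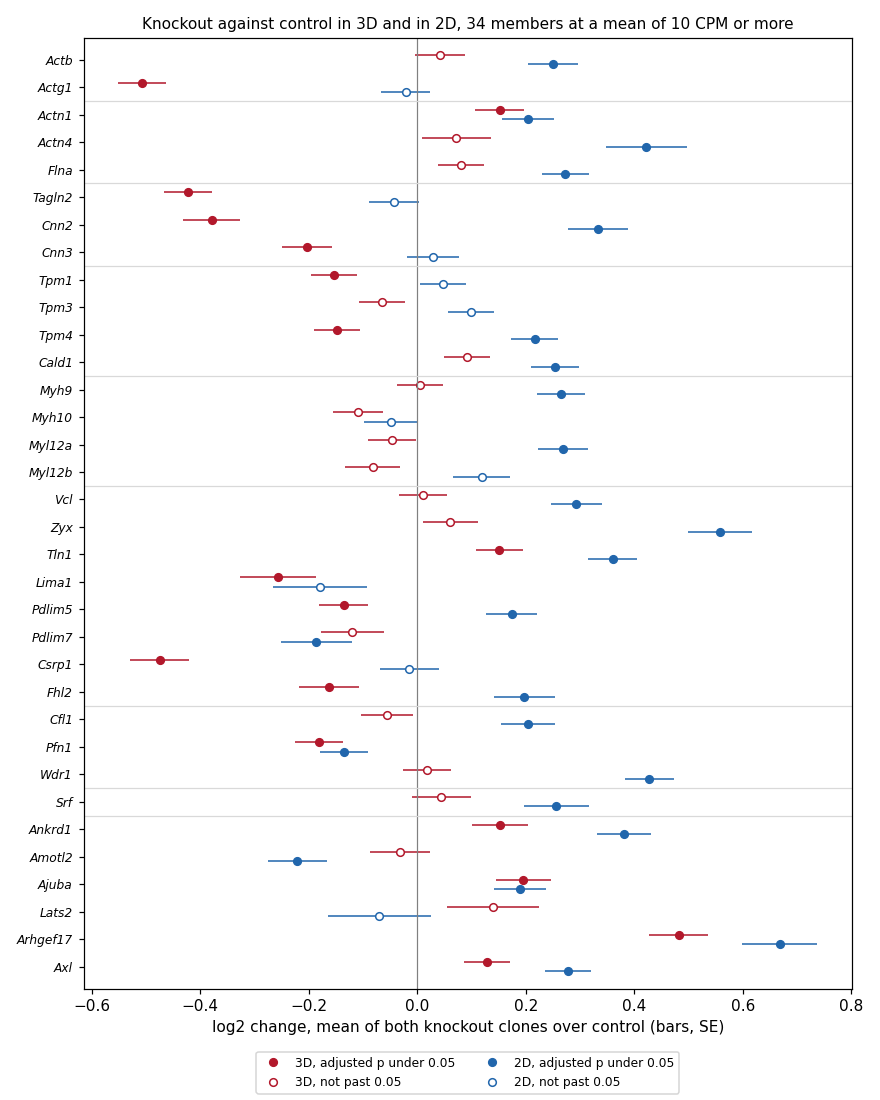
Log2 change of the mean of both clones over control (x axis, bars are the SE) in 3D (red) and in 2D (blue) for the 34 members at a mean of at least 10 CPM, grouped by role from actin isoforms at the top to YAP targets at the bottom, with filled points past an adjusted p of 0.05. The 2D value lies to the right of the 3D value for most members, with the widest gap at Cnn2 (-0.38 in 3D and 0.33 in 2D).

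The difference between the formats was tested as an interaction, which is the knockout change in 3D minus the knockout change in 2D. It was called for 20 of 37 members (54.1%), all of them in the negative direction, while 8.01% of all genes tested were called, 2.83% positive and 5.18% negative. The median interaction was -0.21 over the members and -0.03 over all genes, and 31 of 37 members were below 0 against 55.0% of all genes. So the knockout change was less positive or more negative in collagen than on plastic for most of the actin genes. The negative set held 6 of 8 adhesion and LIM genes, 3 of 4 calponin and transgelin genes, both cytoplasmic actins and 1 of 6 YAP targets.

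Cnn2 had the largest interaction, at -0.71 ± 0.08 (adjusted p = 5.8e-07). Its 2D rise in clone 2 was not there in 3D, and in clone 1 a level near control in 2D stood against a lower one in 3D. Zyx followed at -0.50 ± 0.08 (adjusted p = 1.5e-04). Its level in 3D was 142 and 142 CPM in clone 1 and at 159 and 162 CPM in clone 2, against 140 and 150 CPM in control, so the groups overlapped, with a mean change of 0.06 ± 0.05 (adjusted p = 0.418). Actg1 was at -0.49 ± 0.06 (adjusted p = 1.1e-05), Csrp1 at -0.46 ± 0.08 (adjusted p = 3.3e-04), Wdr1 at -0.41 ± 0.06 (adjusted p = 1.1e-04) and Tagln2 at -0.38 ± 0.06 (adjusted p = 3.7e-04). Wdr1 in 3D was at 582 and 565 CPM in clone 1 and at 476.5 and 464 CPM in clone 2, against 503 and 523 CPM in control, which put the clones on either side of control.

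Of the 20 calls, 11 held under all 18 alternatives tried, namely Actg1, Tagln2, Cnn2, Tpm4, Myh9, Myl12a, Vcl, Zyx, Pdlim5, Csrp1 and Wdr1. Actb (-0.21 ± 0.06, adjusted p = 0.0466), Ankrd1 (-0.23 ± 0.07, adjusted p = 0.0467), Flna (-0.19 ± 0.06, adjusted p = 0.0474), Tpm1, Tln1, Cnn3 and Actn4 were lost under at least 11 of the 18. Cfl1 was lost under 5 and Fhl2 under 1. Srf was at -0.21 ± 0.08 (adjusted p = 0.109) and Acta2 and Tagln were not called. The count of 20 was 13 without the abundant predicted genes Gm26917 and Gm42418. Leaving out 1 library of the 3D set gave 12 for clone 1 replicate 2, 11 for control replicate 2, and 13 each for control replicate 1 and for either clone 2 library. Leaving out clone 2 replicate 2 in 2D also gave 13. Etv4 itself had an interaction of 0.36 ± 0.08 (adjusted p = 0.00398), since its level in clone 2 was nearer to control in 3D.

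Several members lay on opposite sides of control in the 2 clones, most of them in 3D, among them Tagln2, Actb, Myl12a, Myh10 and Ankrd1. Since both clones are set against the same control libraries, the values of each clone are given side by side and the clones are compared directly. In 3D clone 1 was higher than control for 12 members and lower for 8, where 45.1% of all genes were called, 22.0% higher and 23.0% lower. Clone 2 in 3D was higher for 4 and lower for 12, where 29.2% of all genes were called, 11.9% higher and 17.4% lower. In 2D clone 1 was higher for 18 members and lower for 4 (39.8% of all genes called, 19.8% higher), and clone 2 was higher for 20 and lower for 3 (33.9% called, 18.9% higher). Clone 2 against clone 1 in 3D was called for 9 members higher and 15 lower, where 54.9% of all genes were called, 26.4% higher and 28.5% lower. In 2D this was 13 higher and 7 lower, where 41.6% of all genes were called, 23.2% higher and 18.4% lower.

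Among members above 10 CPM, the largest contrast between the clones was Tagln2 in 3D. Against control it was at -1.07 ± 0.05 in clone 2 (adjusted p = 4.3e-14) and at 0.22 in clone 1, and clone 2 over clone 1 was at -1.29 ± 0.05 (adjusted p = 8.3e-17). Csrp1 was at -0.86 ± 0.07 in clone 2 (adjusted p = 1.0e-10) and -0.09 in clone 1, and Fhl2 at -0.47 ± 0.06 in clone 2 (adjusted p = 3.1e-06) and 0.14 in clone 1. All 3 lie on chromosome 1, and centred the changes in clone 2 were -0.53 for Tagln2 (adjusted p = 1.1e-07), -0.32 for Csrp1 (adjusted p = 6.9e-04) and 0.07 for Fhl2 (adjusted p = 0.491). Thus the fall of Tagln2 and Csrp1 went beyond the median of their chromosome and that of Fhl2 did not. Fhl2 was at 60.4 and 61.6 CPM in clone 1 and 39.0 and 41.0 CPM in clone 2, against 53.9 and 56.6 CPM in control.

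Actb also split the clones in 3D, with 0.36 ± 0.05 in clone 1 (adjusted p = 3.8e-06) and -0.27 ± 0.05 in clone 2 (adjusted p = 2.5e-04). Clone 2 over clone 1 was -0.63 ± 0.05 (adjusted p = 1.4e-10), against -0.08 in 2D (adjusted p = 0.22). Myl12a had the same order in 3D, at 409 and 378 CPM in clone 1 and 252 and 257 CPM in clone 2, against 326 and 327 CPM in control. No groups overlapped, and clone 2 over clone 1 was at -0.63 ± 0.05 (adjusted p = 7.4e-11), or -0.25 with chromosome 17 centred (adjusted p = 4.7e-04). The centred values against control in 3D were 0.03 in clone 1 (adjusted p = 0.675) and -0.21 in clone 2 (adjusted p = 0.00508). In 2D Myl12a was at 384 and 377 CPM in clone 1 and 304 and 307 CPM in clone 2, against 274 and 291.5 CPM in control, with clone 1 0.43 ± 0.05 above control (adjusted p = 3.6e-07), or 0.16 centred (adjusted p = 0.0337). Actg1 was lower in both clones in 3D, by -0.57 ± 0.05 in clone 1 (adjusted p = 1.1e-09) and -0.44 ± 0.05 in clone 2 (adjusted p = 1.5e-07). With chromosome 11 centred the value was -0.09 in clone 1 (adjusted p = 0.209) and -0.48 in clone 2 (adjusted p = 2.7e-07). In 2D it was at -0.24 in clone 1 (adjusted p = 4.8e-04) and 0.20 in clone 2 (adjusted p = 0.0037), and the value in clone 1 turned to 0.15 with chromosomes centred (adjusted p = 0.041).

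Myh10, the B form of non-muscle myosin heavy chain, was at 223 and 215 CPM in clone 1 and 354 and 352 CPM in clone 2 in 3D, against 299.6 and 299.8 CPM in control. Clone 1 was lower at -0.45 ± 0.05 (adjusted p = 1.2e-07) and clone 2 higher at 0.24 ± 0.05 (adjusted p = 0.00117). Myh10 lies on chromosome 11, and centred the value was 0.03 in clone 1 (adjusted p = 0.784) and 0.20 in clone 2 (adjusted p = 0.0137). Tpm1 was at 207 and 202 CPM in clone 1 and 284 and 283.5 CPM in clone 2 in 3D, against 270 and 266 CPM in control, which is -0.39 ± 0.05 in clone 1 (adjusted p = 4.4e-07) and 0.08 in clone 2. Cnn2 and Cnn3 were lower in clone 1 in 3D as well, at -0.63 ± 0.06 (adjusted p = 5.0e-09) and -0.37 ± 0.05 (adjusted p = 2.6e-06), against -0.13 and -0.03 in clone 2. With chromosomes centred, Cnn2 was called lower in clone 2 too, at -0.29 (adjusted p = 0.00105). In 3D clone 1 was thus the lowest group for Cnn2, Cnn3, Tpm1 and Myh10, and clone 2 for Tagln2, Csrp1 and Tpm4, the last at -0.30 ± 0.05 (adjusted p = 3.4e-05).

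The YAP targets differed by clone too. Ankrd1 in 3D was -0.17 ± 0.06 in clone 1 (adjusted p = 0.02) and 0.48 ± 0.06 in clone 2 (adjusted p = 4.5e-07), a difference of 0.65 ± 0.06 (adjusted p = 5.8e-10). In 2D it was higher in both, at 0.24 ± 0.06 in clone 1 (adjusted p = 0.00139, or 0.11 centred with adjusted p = 0.192) and 0.52 ± 0.06 in clone 2 (adjusted p = 1.1e-07). Arhgef17 was higher in both clones and both formats, at 0.71 ± 0.06 in clone 1 and 0.26 ± 0.06 in clone 2 in 3D and at 0.98 ± 0.08 and 0.36 in 2D. Ajuba and Axl were higher in clone 1. In 2D Ajuba was at 301 and 310 CPM in clone 1 and 230 and 224 CPM in clone 2, against 231.5 and 230.6 CPM in control, and Axl was at 1187 and 1193 CPM in clone 1 and 878 and 874 CPM in clone 2, against 817 and 868 CPM in control. Clone 2 over clone 1 was -0.43 ± 0.05 for Ajuba (adjusted p = 6.0e-07) and -0.44 ± 0.05 for Axl (adjusted p = 6.3e-08) in 2D. Amotl2 in 2D was -0.32 ± 0.06 in clone 2 (adjusted p = 3.2e-04) and -0.12 in clone 1. Lats2, a Hippo kinase gene that YAP also induces, was called in none of these comparisons, and 42.4% of its exon length is shared with a gene on the same strand.

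In 2D the clones differed most, among members above 10 CPM, in Cnn2 (0.69 ± 0.06 for clone 2 over clone 1, adjusted p = 2.2e-09), Arhgef17 (-0.62 ± 0.07, adjusted p = 1.9e-07), Actn4 (0.52 ± 0.08, adjusted p = 1.6e-05), Actg1 (0.44 ± 0.05, adjusted p = 1.5e-07), the Axl and Ajuba just given, Tagln2 (-0.37 ± 0.05, adjusted p = 2.7e-06), Fhl2 (-0.32 ± 0.06) and Myl12a (-0.32 ± 0.05). With chromosomes centred, Fhl2 was at -0.10 (adjusted p = 0.28) and Myl12a at 0.07 (adjusted p = 0.374), neither of them called. Cald1, at 364 and 365.5 CPM in clone 2 and 307 and 288 CPM in clone 1, was 0.29 ± 0.05 higher in clone 2 (adjusted p = 3.5e-05), but centred it was at 0.0018 (adjusted p = 1). Lima1, at 32.6 and 26.7 CPM in clone 2 and 25.2 and 23.5 CPM in clone 1, was 0.29 ± 0.10 higher (adjusted p = 0.0215). The muscle tropomyosin gene Tpm2 was low everywhere, but clone 2 over clone 1 was called in 3D, at 1.502 ± 0.49 (adjusted p = 0.0112), and in 2D, at 1.12 ± 0.39 (adjusted p = 0.0234). Both calls were lost with chromosomes centred (adjusted p = 0.0515 in 3D and 0.0941 in 2D). Its level was 0.874 and 0.730 CPM in clone 2 and 0.342 and 0.226 CPM in clone 1 in 3D, and 2.44 and 2.99 CPM in clone 2 and 1.12 and 1.37 CPM in clone 1 in 2D.

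**Figure D3:**
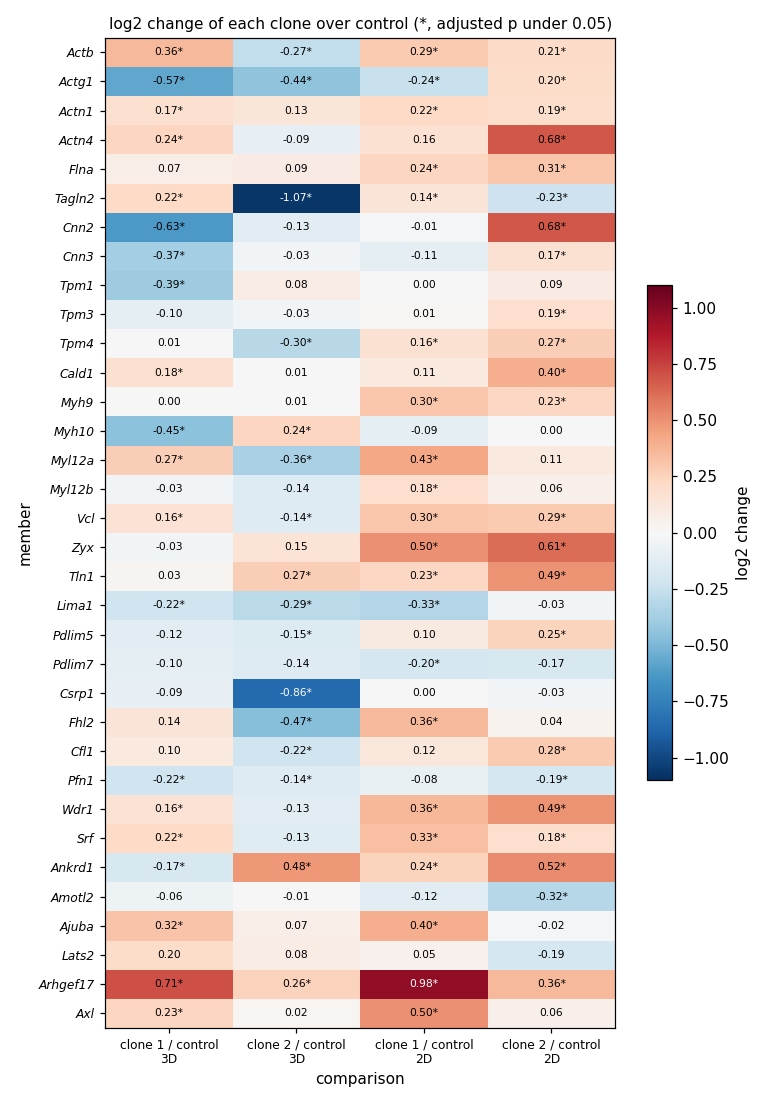
Log2 change of clone 1 and of clone 2 over control in 3D (left) and in 2D (right) for the 34 members at a mean of at least 10 CPM, one row each, with an asterisk where the adjusted p was under 0.05. Zyx, Vcl and Wdr1 were higher in both clones in 2D, while in 3D Tagln2 (0.22 and -1.07), Actb (0.36 and -0.27) and Ankrd1 (-0.17 and 0.48) had opposite signs in clone 1 and clone 2.

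Each clone was also tested for the difference between formats. For clone 1 the interaction was called in 0 members positive and 9 negative (7.02% of all genes called, 3.57% positive and 3.44% negative), and for clone 2 in 2 positive and 20 negative (22.2%, with 7.43% positive and 14.8% negative). Zyx was negative in both, at -0.53 ± 0.09 in clone 1 (adjusted p = 2.7e-04) and -0.46 ± 0.09 in clone 2 (adjusted p = 4.4e-04), and so was Cnn2, at -0.62 ± 0.09 (adjusted p = 4.0e-05) and -0.81 ± 0.09 (adjusted p = 3.0e-07). Actg1 was at -0.33 ± 0.07 in clone 1 (adjusted p = 0.00526, or 0.0618 with chromosomes centred) and -0.64 ± 0.07 in clone 2 (adjusted p = 5.3e-07). Wdr1 was called in clone 2 (-0.62 ± 0.07, adjusted p = 8.4e-07) and was at -0.20 in clone 1 (adjusted p = 0.091). Tagln2 (-0.84 ± 0.07) and Csrp1 (-0.83 ± 0.09) were called in clone 2, where the median of chromosome 1 was itself -0.25 in this contrast, and were at 0.08 and -0.09 in clone 1. Actn4 was called in clone 2 (-0.77 ± 0.11, adjusted p = 1.7e-05). The named calls of clone 1 were completed by Ankrd1 (-0.41 ± 0.08, adjusted p = 0.00191), Tpm1 (-0.39 ± 0.07, adjusted p = 5.5e-04) and Myh10 (-0.36 ± 0.08, adjusted p = 0.00494, or 0.0633 centred). In clone 2 Amotl2 (0.31 ± 0.09, adjusted p = 0.0137) and Myh10 (0.24 ± 0.08, adjusted p = 0.0288) were the 2 positive ones, and with chromosomes centred neither was called.

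Ratios of related members within a library do not depend on the library's scaling. Actb over Actg1, per kb, was 8.51 and 8.24 in clone 1, 5.03 and 4.90 in clone 2 and 4.52 and 4.31 in control in 3D. In 2D it was 11.25 and 11.25 in clone 1, 7.68 and 7.94 in clone 2 and 7.74 and 7.80 in control. So clone 1 had the highest share of beta actin in both formats, with no overlap with the other groups of its format. These ratios are not centred for chromosomes, and Actg1 lies on chromosome 11. With chromosomes centred, clone 1 over control in 2D was at 0.12 for Actb and 0.15 for Actg1, and in 3D at 0.16 for Actb and -0.09 for Actg1. Tpm1 over Tpm4, 2 tropomyosin genes, was 0.116 and 0.121 in clone 1, 0.204 and 0.203 in clone 2 and 0.158 and 0.154 in control in 3D. In 2D it was 0.250 and 0.243 in clone 1, 0.250 and 0.239 in clone 2 and 0.278 and 0.275 in control. The clones were below control on plastic but lay on either side of it in collagen. With 2 libraries against 2, an exact permutation test could not reach the threshold, so no p is given for these ratios.

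**Figure D4:**
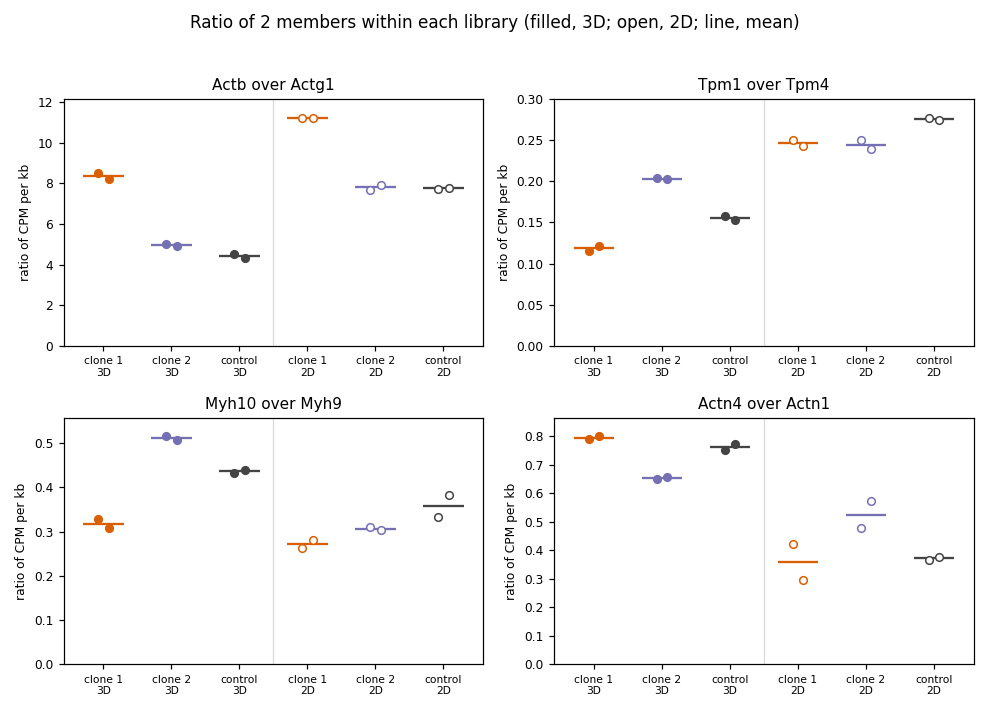
Ratio of CPM per kb for 4 pairs of members in each of the 12 libraries (y axis from 0), with filled points for 3D, open points for 2D and a line at the mean of 2 libraries. Clone 1 had the highest ratio of Actb to Actg1 in each format, and Myh10 over Myh9 in 3D ran from 0.308 in clone 1 to 0.516 in clone 2.

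Between collagen and plastic, members differed in both directions. In clone 1, 12 of 37 members were higher in 3D than in 2D and 21 lower (75.1% of all genes tested were called, 39.8% higher and 35.3% lower). In clone 2 the counts were 9 higher and 22 lower (79.5% of all genes, 42.5% higher and 37.0% lower). In control they were 12 higher and 16 lower, or 75.7% of the members, against 77.2% of all genes (41.7% higher and 35.6% lower), which is near the background in this fit. With chromosomes centred, 12 members were higher and 21 lower in control. Of the 13763 genes tested, 5273 were higher and 5344 lower in that centred fit. Uncentred, the median log2 change in control was -0.08 over the members and 0.10 over all genes. Format, digestion and count table changed together and their parts cannot be told apart.

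Both alpha-actinin genes were higher in collagen in every group, while the crosslinker gene Flna was lower in control (-0.34 ± 0.05, adjusted p = 5.3e-07). Actn4 was higher in 3D by 2.07 ± 0.08 in clone 1 (adjusted p = 3.2e-18), by 1.22 ± 0.08 in clone 2 (adjusted p = 6.9e-14) and by 2.00 ± 0.08 in control (adjusted p = 7.1e-18), where it was at 369 and 364 CPM in 3D and 89.0 and 94.4 CPM in 2D. Actn1 was higher by 0.92 in clone 1, 0.90 in clone 2 and 0.96 ± 0.05 in control (adjusted p = 4.9e-15), with 443.5 and 426 CPM in 3D and 219 and 227 CPM in 2D in control. Neither overlapped between formats in any group. Arhgef17, Zyx, Myh10 and Actg1 came next in control. Arhgef17 was higher by 0.75 in clone 1, 0.92 in clone 2 and 1.02 ± 0.07 in control, and Zyx by 0.38, 0.46 and 0.92 ± 0.06 in the same order. Myh10 was higher by 0.42 in clone 1, 1.02 in clone 2 and 0.78 ± 0.06 in control. Actg1 was higher by 0.35 in clone 1 and 0.68 ± 0.05 in control, and was at 0.04 in clone 2 (adjusted p = 0.516). Lima1 was higher by 0.70 in clone 1, 0.33 in clone 2 and 0.60 in control. Cald1 was higher by 0.51 in clone 1 and 0.44 in control, and Cfl1 by 0.43 in clone 1 and 0.45 in control.

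Of the YAP targets in control, 3 of 6 were lower in collagen, 1 was higher and 2 were not called, and 4 of 5 tropomyosin and caldesmon genes were lower. Tpm1 was at -2.04 ± 0.05 in clone 1, -1.66 ± 0.05 in clone 2 and -1.65 ± 0.05 in control (adjusted p = 1.6e-20), where it had 270 and 266 CPM in 3D and 845.5 and 831 CPM in 2D. Tpm4 was at -0.98 in clone 1, -1.39 in clone 2 and -0.82 ± 0.05 in control (adjusted p = 3.9e-14), where it had 581 and 588 CPM in 3D and 1034 and 1028 CPM in 2D. In control, Tpm3 was at -0.47 ± 0.05 (adjusted p = 2.3e-09) and Tpm2 at -2.03 ± 0.45 (adjusted p = 2.5e-04), the last from very few counts. All 4 tropomyosin genes were therefore lower in 3D.

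Among YAP targets, Ajuba was at -1.85 in clone 1, -1.66 in clone 2 and -1.76 ± 0.06 in control (adjusted p = 7.8e-20), where it had 64.3 and 72.1 CPM in 3D and 231.5 and 230.6 CPM in 2D. Ankrd1 was at -1.90 in clone 1, -1.53 in clone 2 and -1.49 ± 0.06 in control (adjusted p = 4.3e-18), where it had 82.1 and 82.8 CPM in 3D and 218 and 243 CPM in 2D. Amotl2 was at -1.19 in clone 1, -0.94 in clone 2 and -1.26 ± 0.06 in control (adjusted p = 8.0e-16), where it had 89.4 and 90.2 CPM in 3D and 203 and 226.5 CPM in 2D. All 3 were lower in 3D in every group. Csrp1 was at -1.02 in clone 1, -1.76 in clone 2 and -0.93 ± 0.06 in control (adjusted p = 2.9e-13). Axl, Lats2 and Srf were not called in control. With chromosomes centred, each was called lower in control, at -0.16 for Axl (adjusted p = 0.00891), -0.28 for Lats2 (adjusted p = 0.0179) and -0.15 for Srf (adjusted p = 0.0427). Uncentred values of Srf by group follow. Srf was at -0.19 ± 0.07 in clone 1 (adjusted p = 0.011), -0.40 ± 0.07 in clone 2 (adjusted p = 4.2e-06) and -0.08 ± 0.07 in control (adjusted p = 0.259).

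One measured limit touches this comparison. In control, the 69 genes whose exons lie for more than 80% under a gene of the other strand had a median change of -3.97 between 3D and 2D, and 829 genes annotated as antisense had a median of 2.56, against 0.0980 for 8923 genes with no such cover. Among the members, 24 overlap no other exon, and the cover on the opposite strand was 67.9% for Tagln, 25.5% for Vcl, 17.7% for Cnn3, 16.5% for Cfl1 and 8.15% for Actn1. The part of this in the members' values was not tested.

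**Figure D5:**
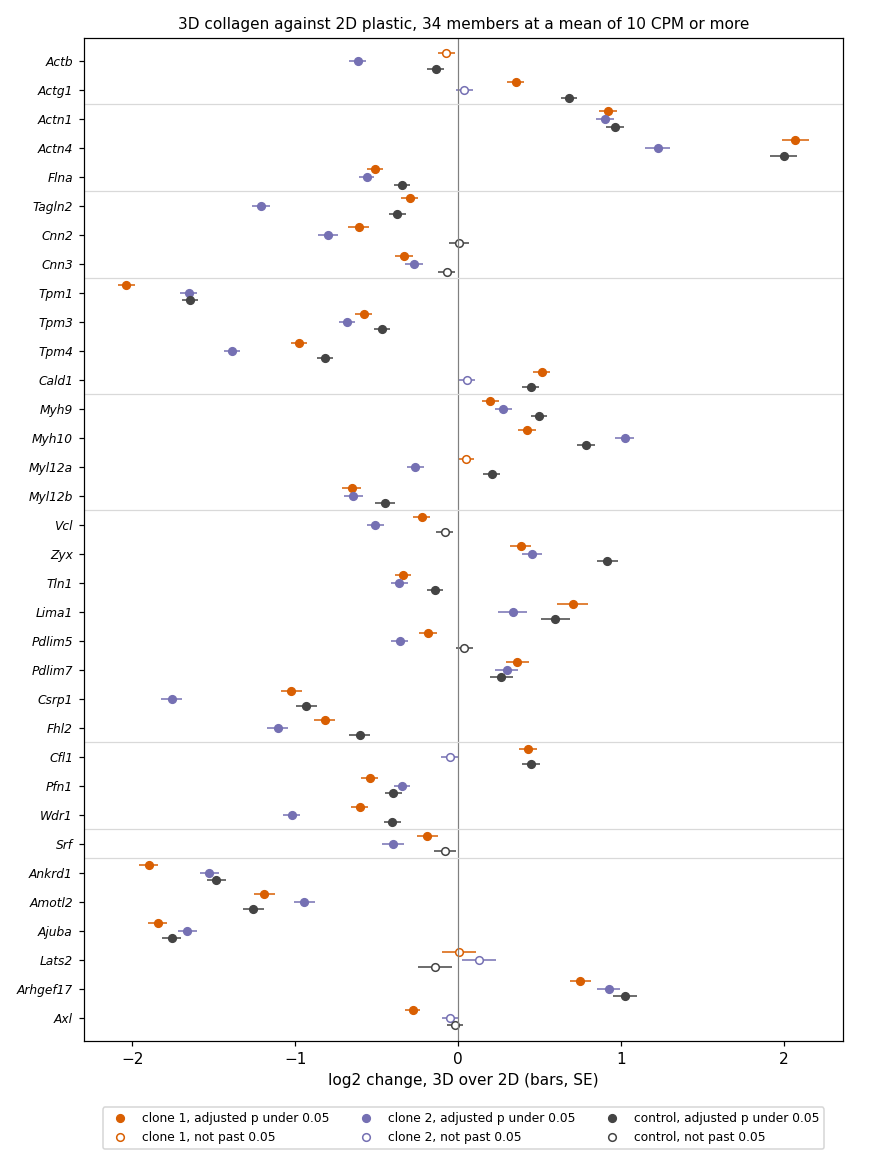
Log2 change of 3D over 2D (x axis, bars are the SE) in clone 1, clone 2 and control for the 34 members at a mean of at least 10 CPM, with filled points past an adjusted p of 0.05. Actn4, Actn1 and Arhgef17 lie to the right and Tpm1, Ajuba and Ankrd1 to the left in all 3 lines of cells.

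The rest of the machinery gives the setting for these members. Against control, 11.5% of all genes tested were higher and 17.4% lower in 3D, and 17.9% were higher and 17.6% lower in 2D. In the interaction 2.83% of all genes were positive. Of 13 YAP and TEAD targets outside the members that were tested, 6 were higher and 2 lower in the knockout in 3D (median 0.07) and likewise 6 and 2 in 2D (median 0.14), and 2 were positive in the interaction. Those 2 were Ctgf (0.73 ± 0.11, adjusted p = 7.5e-05) and Cyr61 (0.67 ± 0.07, adjusted p = 2.3e-07), secreted matrix-associated proteins. Their sign for the clone mean is the reverse of that of the actin genes. Cyr61 in 3D was at 413 and 435 CPM in clone 1 and 95.8 and 96.4 CPM in clone 2, against 113 and 117 CPM in control, so its rise was in clone 1, where Ankrd1 was lower than control. In 2D Cyr61 was at 323 and 351 CPM in clone 1 and 271 and 260 CPM in clone 2, against 266 and 275 CPM in control. Clone 2 was thus below control in 3D and near it in 2D, so the reversed sign of Cyr61 came from clone 1. Ctgf in 3D was at 32.0 and 35.0 CPM in clone 1 and 23.5 and 26.7 CPM in clone 2, against 14.99 and 14.65 CPM in control. The YAP-linked genes thus held changes of both signs.

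Of 20 Hippo pathway and TEAD genes tested, 3 were higher and 7 lower in 3D and 2 higher and 5 lower in 2D, with Tead1 at 0.39 ± 0.06 (adjusted p = 2.1e-05) and Yap1 at -0.36 ± 0.05 (adjusted p = 3.1e-06) in 2D and Tead1 negative in the interaction (-0.47 ± 0.08, adjusted p = 3.0e-04). Among all genes tested, 28.9% were called in 3D and 35.5% in 2D, the latter near the share in the Hippo and TEAD list. Of 5 SRF cofactor genes tested, 0 were higher and 2 lower in 3D and 1 higher and 2 lower in 2D. For the clone mean Mkl2, an MRTF gene, was lower in 3D, at -0.21 ± 0.06 (adjusted p = 0.00613), and lower in 2D, at -0.30 ± 0.08 (adjusted p = 0.00234). Most of this was in clone 1, with means of 66.2 CPM in clone 1, 79.7 in clone 2 and 83.75 in control in 3D. In 2D they were 21.6, 29.0 and 30.8 CPM. Mkl1, also an MRTF gene, was above control in clone 1, at 90.5, 68.15 and 76.8 CPM in 3D in the same order. In 2D Mkl1 was at 26.8, 21.3 and 21.2 CPM. All 5 SRF cofactor genes were higher in 3D than in 2D in control, where 41.7% of all genes were higher, with Mkl1 at 1.85 ± 0.08 (adjusted p = 1.3e-17).

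Related lists were also counted in the interaction of the clone mean, where 5.18% of all genes were negative. By clone, most of these calls were in clone 2. In clone 1 the Arp2/3 list had 1 positive and 1 negative, the capping list 0 and 1, and the focal adhesion list 1 and 0. In clone 2 these were 0 and 7, 1 and 9, and 0 and 6. Over all genes, 3.57% were positive and 3.44% negative in clone 1, and 7.43% and 14.8% in clone 2. Against control, 28.9% of all genes were called in 3D and 35.5% in 2D. Of 14 Arp2/3 and nucleator genes, 5 were negative and 0 positive (median -0.20), with Arpc5 at -0.36 ± 0.07 (adjusted p = 0.00185), and against control 5 were higher and 3 lower in 3D and 6 higher and 3 lower in 2D. Of 14 tested genes for capping, severing and monomer binding, 5 were negative and 0 positive (median -0.19), with the thymosin genes Tmsb4x at -0.58 ± 0.08 (adjusted p = 1.9e-05) and Tmsb10 at -0.40 ± 0.08 (adjusted p = 0.00179) and the severing gene Gsn at -0.33 ± 0.06 (adjusted p = 0.00119). Against control 2 of these were higher and 1 lower in 3D and 8 higher and 1 lower in 2D. The mean level of Tmsb4x in 3D was 79.7 CPM in clone 1, 56.6 in clone 2 and 88.9 in control. In 2D it was 124 CPM in clone 1, 176 in clone 2 and 131 in control. Of 15 other focal adhesion genes, 6 were higher and 3 lower in 3D, 9 higher and 1 lower in 2D, and 3 negative in the interaction, with Itgb1 at -0.25 ± 0.07 (adjusted p = 0.0245). Of 12 paralogs of the members tested, 2 were higher and 1 lower in 3D and 3 higher and 2 lower in 2D. In the interaction 2 were positive and 3 negative, with a median of -0.03 over the list, so its signs were mixed. Of the negative ones, Flnc was at -0.47 ± 0.08 (adjusted p = 2.5e-04) and Myl6 at -0.42 ± 0.07 (adjusted p = 1.5e-04), and the positive ones are not named here.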

How the data were processed

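Bulk RNA-seq of 12 libraries in 6 groups of 2 was analysed from whole-number read counts per gene that the authors deposited in 1 table for 2D and 1 for 3D. Per the submitters' processing notes, FastQC 0.11.9, STAR 2.7.9a, featureCounts and R 4.1.1 were used with mm10. The notes also name Cell Ranger 3.0.0. The strand setting of the counting is not given in the sources used here, so reads of overlapping or antisense genes could be shared.

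Both tables were joined by gene, and 1 model with 6 group means was fitted in edgeR 4.0.16 (R 4.3.3, limma 3.58.1), with TMM scaling, a low-count filter (minimum count 10, total 15) and the two-sided quasi-likelihood test on 6 residual degrees of freedom. The biological coefficient of variation was 4.51%. Adjustment was over all 13763 genes tested. CPM used the TMM-scaled library sizes. The members and lists were chosen with earlier results of these data known. Genes named for a comparison were the 6 largest called changes in each direction among members at a mean of at least 1 CPM, plus Actb, Actg1, Acta2, Tagln, Srf and Ankrd1, and up to 3 per related list. Some further members are named, chosen after their values were seen. Chromosomes and exon overlaps came from an mm10 annotation in which 13631 of the 13763 tested genes were placed. Alternatives were DESeq2 1.42.0, other size factors, no filter, chromosomes centred, each format fitted alone, a replicate block, 2 abundant genes removed and each library left out. The fits were tested on simulated data. Replicate pairs differed beyond sampling noise (chi-square per degree of freedom 3.51 to 9.51). Same-numbered libraries of different groups did not deviate together (r from -0.0449 to 0.0223 over all genes tested), so numbers were not used as pairs. One marker gene and 1 related gene list are not reported here.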

Additional observations from a re-analysis of the deposited data

Results flagged for a closer look

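The knockout change differed between 3D and 2D, by the test of that difference, for these members, each given as the change in 3D minus the change in 2D on the log2 scale. For the mean of both clones the values were -0.71 for Cnn2, -0.50 for Zyx, -0.49 for Actg1, -0.46 for Csrp1, -0.41 for Wdr1, -0.38 for Tagln2, -0.36 for Tpm4, -0.36 for Fhl2, -0.35 for Actn4 and -0.31 for Myl12a. They were -0.31 for Pdlim5, -0.28 for Vcl, -0.26 for Cfl1, -0.26 for Myh9, -0.23 for Cnn3, -0.23 for Ankrd1, -0.21 for Tln1, -0.21 for Actb, -0.20 for Tpm1 and -0.19 for Flna. For clone 1, Myh10 was at -0.36 and Axl at -0.26, and with chromosomes centred neither was called (adjusted p = 0.0633 for Myh10 and 0.077 for Axl in edgeR's test). Myh10 was at 0.24 for clone 2, also not called when centred. For clone 2, Cald1 was at -0.39, Srf at -0.32, Tpm3 at -0.22 and Amotl2 at 0.31. Of these, Tpm3 and Amotl2 were not called with chromosomes centred.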

How the results depend on the processing

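Counts of members called are given here for the alternatives that moved them by over 1.5 times. With chromosomes centred, the clone mean against control had 2 members lower in 2D, 2 were higher and 5 lower in 3D, 2 were lower in clone 1 in 2D and 1 in clone 2 in 2D, and the interaction was negative for 5 in clone 1 and positive for 0 in clone 2. Of all 13763 genes, the same centred counts were 1727, 1128, 1245, 1873, 1631, 367 and 892 in that order. With each format fitted alone, the clone mean had 2 lower in 2D and clone 1 had 2, 7 were higher in clone 2 in 3D and 8 were higher in clone 2 than in clone 1 in 2D. With no filter, 12 were lower in clone 2 than in clone 1 in 2D. Without Gm26917 and Gm42418, 13 had a negative interaction for the mean of both clones.

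With 1 library left out at a time, the mean of both clones had 1 to 4 members lower in 2D, and 1 to 6 higher and 5 to 12 lower in 3D. Its interaction had 11 to 19 negative and 0 to 2 positive. Clone 1 had 2 to 6 lower in 2D, and 6 to 13 higher and 5 to 9 lower in 3D. Clone 2 had 7 to 13 lower in 3D. The interaction had 0 to 1 positive in clone 1 and 0 to 2 in clone 2.

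Among the values named by rule, signs turned with chromosomes centred for Pfn1 (0.14) and Actg1 (0.25) for the clone mean in 2D, Actb (-0.0934) in 3D, Actg1 in clone 1 in 2D (0.15), Tagln2 in clone 2 in 2D (0.12), Myh10 (0.0253), Pfn1 (0.26) and Srf (-0.00939) in clone 1 in 3D, Fhl2 (0.0734) and Srf (0.0107) in clone 2 in 3D, and Myl12a in clone 2 over clone 1 in 2D (0.0692). For the clone mean in 3D, Srf turned to -0.003198 without control replicate 1, and reached 0.0829 without clone 1 replicate 2. Other called members that turned with chromosomes centred were Fhl2 (0.16) and Pfn1 (0.0416) for the clone mean in 3D, Myl12b (-0.0864) in clone 1 in 2D, Wdr1 (-0.0302) in clone 1 in 3D, and, in clone 2 over clone 1, Actg1 (-0.39), Zyx (-0.18), Tln1 (-0.0887) and Srf (0.0201) in 3D and Tpm3 (-0.0455) and Pdlim5 (-0.0742) in 2D. The causes were not tested. Of 2908 values of single genes under alternatives, 2786 kept their direction and side of the threshold and 109 lost the call. With the replicate block the interaction was negative for 18 members, and 21 were higher and 4 lower in 2D and 6 and 11 in 3D. Depth limits Acta2, Tagln, Tpm2 and the 3 genes below the filter.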
